A study of Homo sapiens with 12 samples.

Results

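The BCL2 family of apoptosis regulators was described in human acute myeloid leukemia (AML) cells treated with honokiol, a biphenolic compound of magnolia bark, or with its solvent. The members were listed by gene symbol, with earlier results of these data known. They were BCL2, MCL1, BCL2L1 and BCL2A1, which oppose cell death, BAX and BAK1, which carry it out, and BCL2L11, BBC3, PMAIP1 and BID, which set it off. All 10 were among the 36866 genes of the deposited table, each under 1 identifier, and all 10 passed the filter on low values in both lines. The 12 libraries of poly(A) RNA came from THP-1 and U-937 cells, with 3 in each combination of line and treatment. Both are established monocytic lines, and the labels give each a complex karyotype. THP-1 derives from an acute monocytic leukemia and U-937 from a histiocytic lymphoma, although the labels list both as AML. The 4 groups were THP-1 with DMSO, THP-1 with honokiol, U-937 with DMSO and U-937 with honokiol, each kept in culture for 24 h with the agent. The controls received 0.1% DMSO. The labels list honokiol at 20 and 35 µM without naming the line, so the doses of the lines may differ, and a difference between the honokiol-treated lines cannot be told apart from a difference in dose.

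The proteins of this family meet at the outer membrane of the mitochondrion. BAX and BAK1 can assemble into pores there, which release cytochrome c and start the caspases. BCL2 and its anti-apoptotic relatives hold BAX and BAK1 back, and the BH3-only proteins either occupy these guards or activate the pore formers directly. Leukemic cells often depend on one of the guards, and MCL1 and BCL2 are known drug targets in AML. Much of the regulation of these proteins lies in protein turnover, cleavage and binding, which RNA levels do not measure.

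The deposited counts summed to between 57406966 and 75065752 per library. They are estimates, and multiples of 4 are frequent among low values. The value 4 occurred 17264 times and 8 occurred 9165 times, against 3704 to 4992 times for 5, 6 and 7, and 10103 times for 1. The sums may therefore overstate the number of fragments. In both lines DMSO replicate 1 stood apart by its share of counts from mitochondrially encoded genes, which was 13.7% for THP-1 and 12.6% for U-937, while the remaining 10 libraries had 5.61% to 7.55%. Where a member's estimate moved clearly without these libraries, that value is given beside it. Of 10 monocytic and myeloid markers, all 10 reached an FPKM of 0.5 in every THP-1 library, whereas in U-937 the marker MPO stayed at 0.06 to 0.17 and CD14 at 0.17 to 2.15. The T-cell, epithelial and erythroid lists each summed to at most 1.15 in any library. The endothelial marker PECAM1, which monocytes also carry, reached 12.8 to 50.7, with COL1A1 and VWF at most at 0.75. Nothing in the labels ties the 3 libraries of a group to separate cultures, so p-values measure the spread between these libraries only.

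The values below are FPKM, fragments scaled to transcript length and library size, which allow levels of different genes to be compared. The fold changes and tests come from the counts by edgeR's quasi-likelihood test, with p-values adjusted by the Benjamini-Hochberg method over all genes tested. A gene was called when the adjusted p-value was under 0.05 and the absolute log2 fold change over 1. All intervals are 95% confidence intervals of the fit.

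All members were transcribed in both lines, some at different levels, and honokiol moved no member past the criterion in either line. Between the lines with DMSO, 2 of the 10 members were called, BCL2A1 (higher in U-937) and BCL2L11 (lower in U-937), against 34.0% of the 16283 genes tested. At any fold change, 4 members were higher and 1 was lower in U-937 at an adjusted p-value under 0.05, against 52.9% of all genes. The FPKM ranges of the lines did not overlap for the same count of members, 4 higher and 1 lower, against 56.7% of all genes. With honokiol, 2 members were called, BCL2A1 and PMAIP1, both higher in U-937, against 32.2% of all genes, so in neither comparison were members called more often than genes in general. At any fold change 5 members were then higher and 3 lower, against 51.4% of all genes, and the ranges did not overlap for 5 higher and 3 lower members, against 64.5%. The median log2 fold change of the members, U-937 over THP-1, was -0.10 with DMSO and 0.29 with honokiol, beside -0.05 and -0.02 over all genes tested. In bulk RNA, a lower level in part of the cells cannot be told apart from less RNA in each cell.

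**Figure D1:**
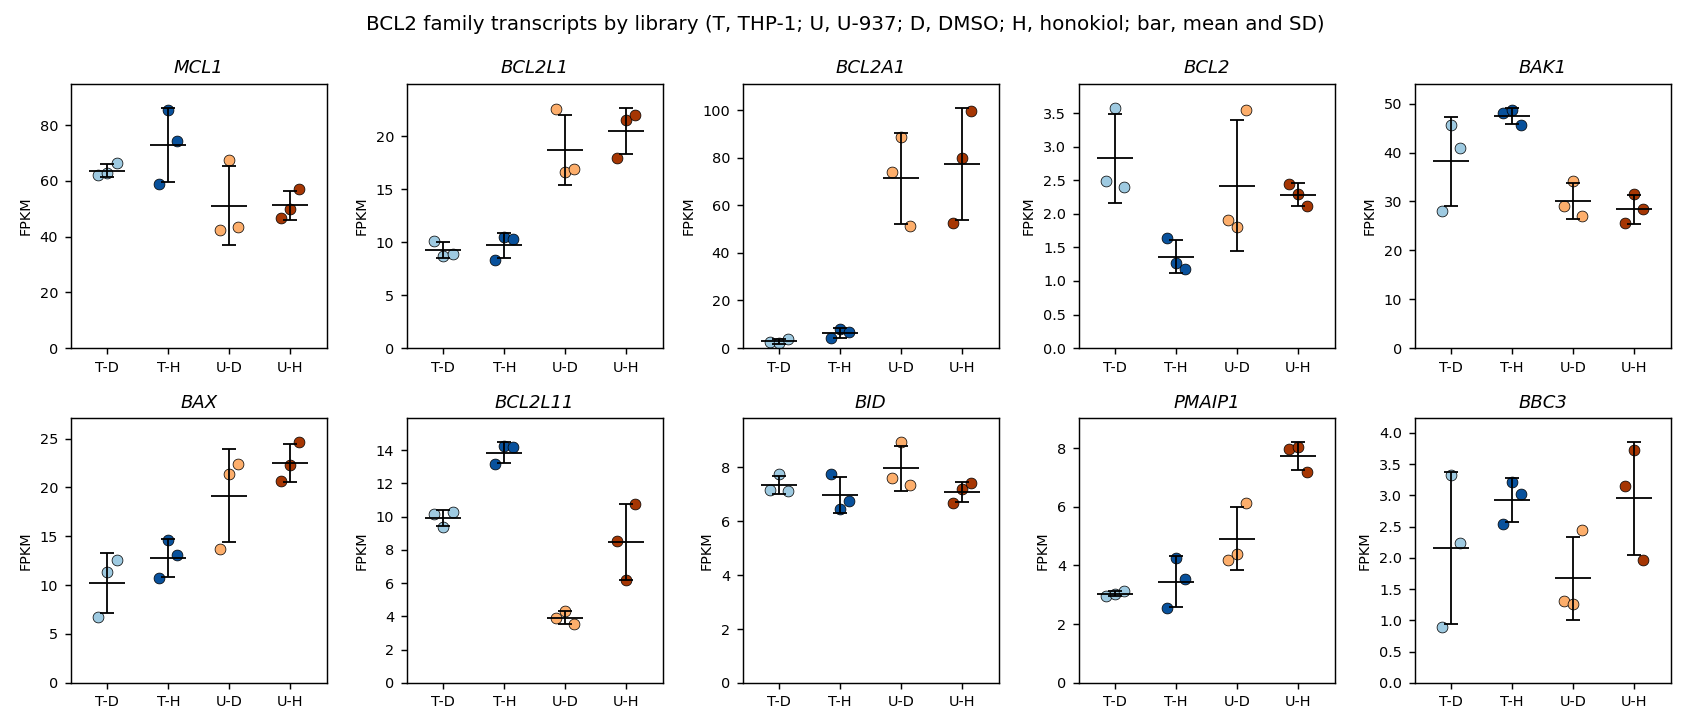
FPKM (linear axis from 0, 1 panel for each member) in the 12 libraries, grouped as T-D (THP-1 with DMSO), T-H (THP-1 with honokiol), U-D (U-937 with DMSO) and U-H (U-937 with honokiol). Points are libraries and bars are the mean and SD of 3. The U-937 points of BCL2A1 lie between 51.1 and 99.5, all above the THP-1 points, which end at 8.23.

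Among the anti-apoptotic members, MCL1 encodes a short-lived guard that binds both BAK1 and BCL2L11. MCL1 measured 62.0, 62.8 and 66.35 in DMSO replicates 1 to 3 of THP-1 and 58.9, 85.5 and 74.5 in the honokiol replicates. In U-937 it measured 42.5, 67.4 and 43.5 with DMSO and 46.6, 50.1 and 57.01 with honokiol. MCL1 was thus the most abundant member in every THP-1 library, and the DMSO and honokiol ranges overlapped in both lines. The log2 fold change with honokiol was 0.14 (SE 0.16, adjusted p = 0.726) in THP-1 and -0.08 (SE 0.20, adjusted p = 0.870) in U-937. The THP-1 interval reached from -0.22 to 0.50 and the U-937 interval from -0.53 to 0.37. Without DMSO replicate 1 the U-937 estimate was -0.18 (adjusted p = 0.711). The level in U-937 was below that in THP-1 with honokiol, at a log2 fold change of -0.60 (SE 0.19, adjusted p = 0.0186), which is 1.52-fold lower. This passed at any fold change and was lost without honokiol replicate 2 of THP-1 (adjusted p = 0.0789) or honokiol replicate 1 or 2 of U-937 (0.0652 and 0.0570). With DMSO the difference was -0.37 (SE 0.19, adjusted p = 0.121). It passed at any fold change in 1 of 22 alternatives, without DMSO replicate 2 of U-937 (adjusted p = 0.0108 by edgeR).

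BCL2L1, which encodes the guard BCL-XL, was at 10.1, 8.68 and 8.89 in the DMSO libraries of THP-1 and at 8.32, 10.5 and 10.3 in the honokiol libraries. The U-937 libraries held 22.5, 16.65 and 16.9 with DMSO and 18.0, 21.5 and 22.0 with honokiol. The 6 libraries of U-937 all lay above the 6 of THP-1. U-937 exceeded THP-1 1.97-fold with DMSO (log2 fold change 0.98, SE 0.18, adjusted p = 0.000617) and 1.98-fold with honokiol (0.99, SE 0.18, adjusted p = 0.000604), both just under the limit for a call. Alternatives took BCL2L1 past it. With DMSO, limma at FPKM + 0.1 gave 1.002 (adjusted p = 0.000171), and leaving out DMSO replicate 1 of THP-1 or DMSO replicate 2 or 3 of U-937 gave 1.064 to 1.095. With honokiol, limma gave 1.044 and 1.074, edgeR's filterByExpr 1.001, and 3 fits with 1 library left out (honokiol replicate 2 or 3 of THP-1, or 1 of U-937) 1.023 to 1.07. The honokiol effect was close to 0, at 0.01 (interval -0.37 to 0.39) in THP-1 and 0.03 (interval -0.38 to 0.45) in U-937. Without DMSO replicate 1 of the line it was 0.13 (adjusted p = 0.714) and 0.22 (adjusted p = 0.445 by edgeR). ABALON, a noncoding gene on the opposite strand, shares 1424 exon bases with BCL2L1 in GENCODE 29, and the strand of the reads is not stated, so reads of both cannot be told apart there. ABALON itself measured 0.69 to 2.42 in THP-1 and 3.92 to 4.68 in U-937, a difference of 1.80 on the log2 scale with DMSO (SE 0.35, adjusted p = 0.000969).

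BCL2A1 encodes BFL-1, a guard found mainly in blood cells and a known target of NF-kappaB. BCL2A1 had 2.64, 1.99 and 3.88 in the DMSO replicates of THP-1 and 4.16, 8.23 and 6.69 in the honokiol replicates. In U-937 the values were 74.05, 88.7 and 51.1 with DMSO and 52.4, 80 and 99.5 with honokiol. The lowest U-937 library was thus far above the highest THP-1 library, and within THP-1 the lowest honokiol library was above the highest DMSO library. BCL2A1 was 24.4-fold higher in U-937 than in THP-1 with DMSO (interval 13.8 to 43.4), at a log2 fold change of 4.61 (SE 0.38, adjusted p = 1.40e-06). With honokiol the fold was 11.4 (interval 6.64 to 19.6), at 3.51 on the log2 scale (SE 0.36, adjusted p = 7.86e-06). BCL2A1 was the member whose group means spanned the widest range, 4.53 on the scale of log2(FPKM + 0.5), and BID spanned the narrowest, 0.18. The honokiol effect in THP-1 was 1.11 on the log2 scale (SE 0.35) and did not pass the test (adjusted p = 0.287). In U-937 it was 0.02 (interval -0.62 to 0.67, adjusted p = 0.978).

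BCL2 encodes the founding member of the family and is the target of the drug venetoclax. BCL2 lay at 2.49, 3.58 and 2.40 in DMSO-treated THP-1 cells and at 1.64, 1.27 and 1.18 in honokiol-treated ones. In U-937 it lay at 1.91, 1.80 and 3.55 with DMSO and at 2.45, 2.30 and 2.11 with honokiol. All honokiol libraries of THP-1 were below all DMSO libraries of that line, and the U-937 ranges overlapped. The log2 fold change in THP-1 was -1.10 (SE 0.21), 2.14-fold lower with honokiol (interval 1.53 to 2.997). It had an unadjusted p-value of 0.000821 and an adjusted p-value of 0.136 by edgeR, so it was not called. Among the 14600 genes tested in THP-1, BCL2 ranked 86 by p-value. By DESeq2 the same difference was called, at -1.10 with an adjusted p-value of 0.000511, and without DMSO replicate 1 it was -1.14 by edgeR (adjusted p = 0.203). In U-937 the log2 fold change was -0.16 (interval -0.74 to 0.42, adjusted p = 0.792), and -0.28 without DMSO replicate 1 (adjusted p = 0.648). With honokiol BCL2 was 1.57-fold higher in U-937 than in THP-1 (0.65, SE 0.25, adjusted p = 0.0429), which passed at any fold change. It was lost without DMSO replicate 1 or honokiol replicate 2 or 3 of THP-1, or any honokiol replicate of U-937 (adjusted p = 0.0530 to 0.143). Of all 22 alternative settings, 13 kept an adjusted p-value under 0.05, so the loss was not limited to left-out libraries. With DMSO the difference between the lines was -0.28 (SE 0.24, adjusted p = 0.363). It passed at any fold change in 1 of 22 alternatives, without DMSO replicate 3 of U-937 (adjusted p = 0.0310 by edgeR).

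The makeup of the anti-apoptotic pool followed the line. In THP-1 MCL1 took 81.1% ± 0.668 (SD, n = 3) of the summed FPKM of the 4 anti-apoptotic members with DMSO and 80.7% ± 0.339 with honokiol. BCL2A1 took 3.59% ± 1.10 and 6.91% ± 1.09 there. In U-937 BCL2A1 took 49.2% ± 4.27 with DMSO and 50.3% ± 5.79 with honokiol, and MCL1 35.5% ± 4.67 and 34.4% ± 4.06. BCL2L1 held between 9.54% and 16.0% of the pool in every library of both lines, and BCL2 at most 4.64%. The ratio of MCL1 to BCL2A1 was 24.1 ± 7.25 in THP-1 with DMSO and 0.728 ± 0.141 in U-937 with DMSO. The summed FPKM of the 4 genes was 78.6 ± 2.53 and 90.4 ± 16.3 in THP-1 with DMSO and honokiol, and 144 ± 29.8 and 151 ± 30.7 in U-937. The ranges of DMSO and honokiol overlapped in both lines, whereas those of the lines did not.

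**Figure D2:**
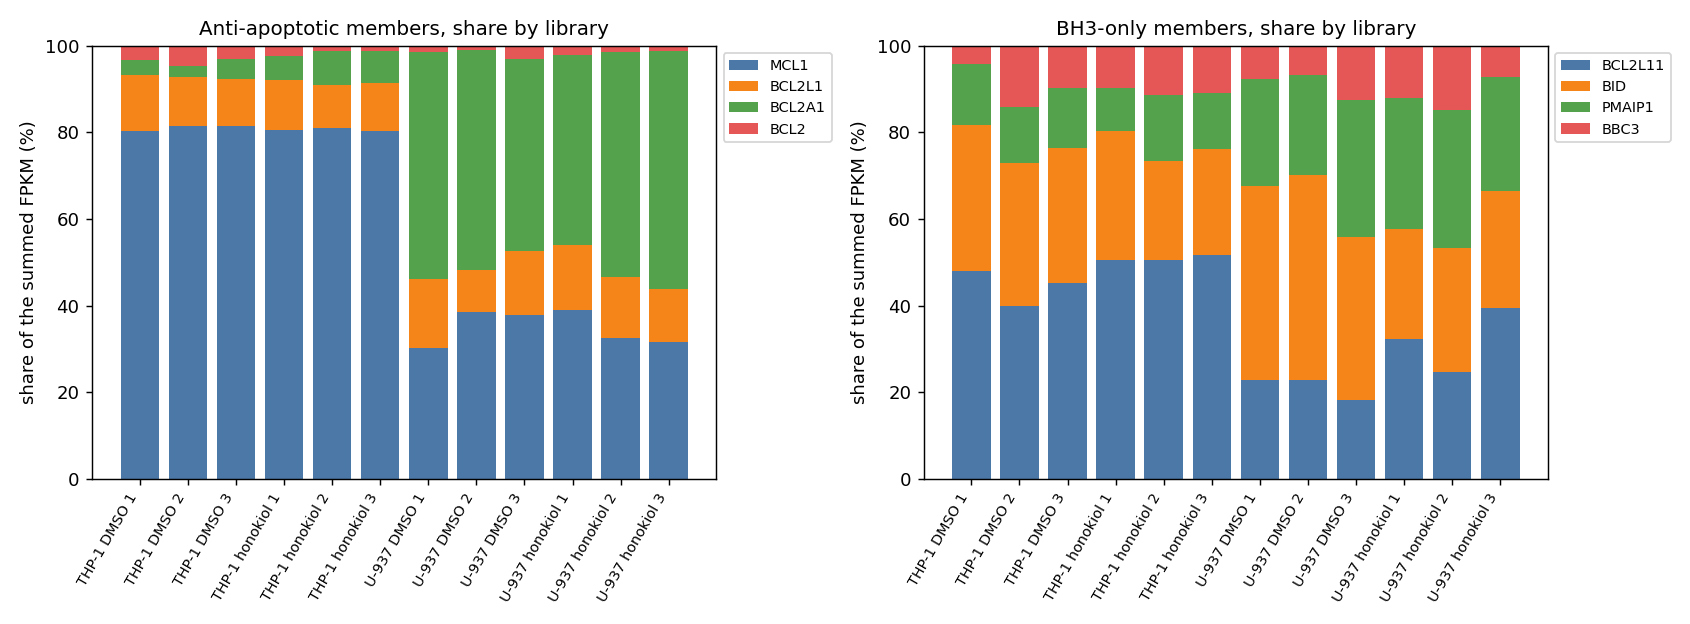
Share of the summed FPKM (%, vertical axis from 0 to 100) of the 4 anti-apoptotic members (left) and the 4 BH3-only members (right) in each of the 12 libraries. MCL1 fills 80.3% to 81.5% of the anti-apoptotic bars of THP-1, and BCL2A1 fills 43.9% to 55.1% of those of U-937.

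Of the effectors, BAK1 sits in the outer mitochondrial membrane and BAX shuttles to it from the cytosol. BAK1 reached 28.0, 45.6 and 40.95 in DMSO-treated THP-1 cells and 48.1, 48.8 and 45.65 in honokiol-treated ones. U-937 had 29.1, 34.1 and 27.0 with DMSO and 25.5, 31.4 and 28.4 with honokiol. The honokiol libraries of THP-1 were the highest of all, by a narrow margin over DMSO replicate 2 of that line. The honokiol effect was 0.27 (SE 0.16, adjusted p = 0.491) in THP-1 and -0.17 (SE 0.14, adjusted p = 0.587) in U-937. BAK1 was 1.78-fold lower in U-937 than in THP-1 with honokiol (-0.83, SE 0.16, adjusted p = 0.000839). With DMSO the difference of -0.38 did not pass (SE 0.16, adjusted p = 0.0604), whereas without the DMSO replicates 1 of both lines it was -0.53 (adjusted p = 0.0150). Without DMSO replicate 1 of THP-1 the honokiol effect in that line was 0.13 (adjusted p = 0.649).

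BAX stood at 6.73, 11.3 and 12.6 in the DMSO libraries of THP-1 and at 10.8, 14.6 and 13.1 in the honokiol libraries. In U-937 it stood at 13.7, 21.4 and 22.4 with DMSO and at 20.7, 22.25 and 24.6 with honokiol. DMSO replicate 1 was the lowest library of each line, and both were the libraries with the high mitochondrial share, whose part in the value was not tested. BAX was higher in U-937, 1.82-fold with DMSO (0.87, SE 0.21, adjusted p = 0.00469) and 1.65-fold with honokiol (0.72, SE 0.21, adjusted p = 0.0138). With 1 library left out, the line difference with DMSO ranged from 0.67 to 1.03, past the limit for a call at its upper end. All 22 alternatives kept its adjusted p-value under 0.05. Honokiol effects of 0.28 (SE 0.22, adjusted p = 0.596) in THP-1 and 0.15 (SE 0.18, adjusted p = 0.713) in U-937 did not pass, and without DMSO replicate 1 they were 0.09 (adjusted p = 0.834) and -0.02 (adjusted p = 0.949). The line difference with honokiol was lost without honokiol replicate 1 of THP-1 (adjusted p = 0.0611) or honokiol replicate 3 of U-937 (adjusted p = 0.0504). The ratio of BAK1 to BAX was 3.82 ± 0.492 (SD, n = 3) in THP-1 with DMSO and 3.77 ± 0.612 with honokiol. In U-937 it was 1.64 ± 0.459 and 1.27 ± 0.133, and no library of U-937 reached the lowest ratio of THP-1, which was 3.25.

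Among the BH3-only members, BCL2L11 encodes BIM, which binds every guard of the family and can activate BAX and BAK1. Its upstream sequence is printed because BCL2L11 was called between the lines and was the only member whose honokiol libraries lay above its DMSO libraries in both lines. The 250 bases before the RefSeq start of the gene (GRCh38.p14, chr2:111120664-111120913, plus strand) read as follows, with matches to the motifs searched in capitals.
BCL2L11: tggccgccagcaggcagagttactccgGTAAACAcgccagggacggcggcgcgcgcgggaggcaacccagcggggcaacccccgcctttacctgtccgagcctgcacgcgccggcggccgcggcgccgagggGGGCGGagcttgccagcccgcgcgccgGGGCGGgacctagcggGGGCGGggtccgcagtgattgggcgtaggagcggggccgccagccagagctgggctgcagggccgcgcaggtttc
The first run of capitals, GTAAACA, is the core bound by FOXO factors, and its first base lies 223 bases before the start. This heptamer, searched on both strands, occurs in 2.98% of the 35116 upstream sequences of the same length. The other 3 runs are GC boxes, GGGCGG, which 42.6% of those sequences hold. Motifs for CRE, ATF4, C/EBP, AP-1, kappaB, E2F, E-box, TATA box and PU.1 were also searched and had no match here. Each of them occurs in 0.131% to 10.7% of the upstream sequences. A match to some motif of the search is therefore more frequent than the 2.98% of the FOXO core alone. The sequence has a GC content of 76.8%, against a median of 58% (quartiles 46.4% and 68%). It begins 1286 bases inside the gene as the deposited table places it (chr2:111119378-111168445), and none of its bases lie in an exon of BCL2L11 or of its antisense neighbour in GENCODE 29. A match is a description of the letters and does not show that a factor binds there.

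BCL2L11 measured 10.1, 9.38 and 10.3 in the DMSO libraries of THP-1 and 13.15, 14.2 and 14.2 in the honokiol libraries. In U-937 it measured 3.88, 4.31 and 3.53 with DMSO and 8.50, 6.16 and 10.8 with honokiol. Each honokiol library was above each DMSO library of its own line, and the DMSO libraries of U-937 were the lowest of the 12. With DMSO BCL2L11 was 2.62-fold lower in U-937 (interval 1.97 to 3.48), at a log2 fold change of -1.39 (SE 0.19, adjusted p = 6.16e-05). With honokiol it was 1.74-fold lower (-0.80, SE 0.18, adjusted p = 0.00338), under the limit for a call. With 1 library left out, this line difference ranged from -1.02 to -0.60, past the limit at its lower end. All 22 alternatives kept an adjusted p-value under 0.05. The honokiol effect was 2.04-fold in U-937 (interval 1.42 to 2.92), at 1.03 on the log2 scale (SE 0.22). It had an unadjusted p-value of 0.00179 and an adjusted p-value of 0.102 by edgeR, and ranked 241 of 13726 genes. In THP-1 it was 1.34-fold (interval 1.10 to 1.63), at 0.42 on the log2 scale (SE 0.12, unadjusted p = 0.00959 and adjusted p = 0.264 by edgeR). Neither was called. DESeq2 called the effect in U-937 (1.02, adjusted p = 0.00250), as did 1 edgeR fit of all 12 libraries (1.01, adjusted p = 0.0305), and without DMSO replicate 1 of U-937 the effect was 1.05 (adjusted p = 0.162).

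MIR4435-2HG, a noncoding host gene on the opposite strand, spans BCL2L11 and shares 727 exon bases with it. The FPKM of MIR4435-2HG was 0.37 to 0.72 in THP-1 and 0.95 to 1.58 in U-937, below that of BCL2L11 in every library. The counts, on which the tests rest, are not scaled to length, and there the order differed by line. In THP-1 MIR4435-2HG had 941 to 2078 counts and BCL2L11 4630 to 7857. In U-937 with DMSO MIR4435-2HG had 2508 to 2913 and BCL2L11 1740 to 2399, and with honokiol the ranges were 3196 to 3759 and 2828 to 4974. Since the strand of the reads is not stated, reads in the shared bases cannot be assigned to either gene. The honokiol effect on MIR4435-2HG was 0.40 (SE 0.20, adjusted p = 0.435) in THP-1 and 0.37 (SE 0.14, adjusted p = 0.246) in U-937. This was the same direction as BCL2L11, whose estimates were 0.42 and 1.03, and the part of shared reads was not tested. The level of MIR4435-2HG was 1.18 higher on the log2 scale in U-937 than in THP-1 with DMSO (SE 0.18, adjusted p = 0.000136), the opposite direction to BCL2L11.

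PMAIP1 encodes NOXA, which binds MCL1 and BFL-1. PMAIP1 was at 2.95, 3.04 and 3.12 in the DMSO libraries of THP-1 and at 2.56, 4.27 and 3.53 in the honokiol libraries. The U-937 values were 4.20, 4.39 and 6.14 with DMSO and 7.97, 8.02 and 7.19 with honokiol. In U-937 the treatments did not overlap, and in THP-1 they did. The honokiol effect was 0.57 (SE 0.18) in U-937, with an unadjusted p-value of 0.0150 and an adjusted p-value of 0.201 by edgeR. In THP-1 it was 0.13 (interval -0.41 to 0.66, adjusted p = 0.835). Between the lines PMAIP1 was higher in U-937, 2.10-fold with honokiol (1.07, SE 0.21, adjusted p = 0.00105) and 1.56-fold with DMSO (0.64, SE 0.21, adjusted p = 0.0214). Without honokiol replicate 1 of THP-1 the former fell to 0.88 (adjusted p = 0.00499), under the limit for a call. The latter was lost at any fold change without DMSO replicate 2 or 3 of THP-1 or DMSO replicate 3 of U-937 (adjusted p = 0.0567 to 0.0921).

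BID, which is cleaved by caspase-8 and links death receptors to mitochondria, was the steadiest member. Its FPKM lay between 6.45 and 8.93 in all 12 libraries, and all 4 groups overlapped. The honokiol effect was -0.13 (SE 0.14, adjusted p = 0.718) in THP-1 and -0.25 (SE 0.14, adjusted p = 0.417) in U-937, and the lines differed by 0.07 with DMSO and -0.07 with honokiol (adjusted p = 0.683 and 0.705). BBC3 encodes PUMA, a p53 target. BBC3 had 0.90, 3.33 and 2.23 in the DMSO libraries of THP-1 and 2.54, 3.22 and 3.02 in the honokiol libraries. In U-937 it had 1.31, 1.26 and 2.44 with DMSO and 3.15, 3.73 and 1.97 with honokiol. DMSO replicate 1 of THP-1, which was rich in mitochondrial counts, was the lowest library, and the treatments overlapped in both lines. The estimates were 0.41 in THP-1 (SE 0.39, adjusted p = 0.672) and 0.74 in U-937 (SE 0.33, adjusted p = 0.310), and the former was 0.06 without that library (adjusted p = 0.930). Between the lines the differences were -0.40 with DMSO (adjusted p = 0.423) and -0.08 with honokiol (adjusted p = 0.886). The former was -0.75 without DMSO replicate 1 of THP-1 (adjusted p = 0.0858).

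Summed over the 4 BH3-only members, the FPKM was 22.5 ± 1.18 (SD, n = 3) in THP-1 with DMSO and 27.2 ± 1.11 with honokiol. In U-937 it was 18.45 ± 1.29 with DMSO and 26.3 ± 1.12 with honokiol. The honokiol libraries lay above the DMSO libraries in both lines, with lowest honokiol sums of 26.0 and 25.1 against highest DMSO sums of 23.5 and 19.5. In THP-1 this separation rested on BCL2L11. Without it the sums were 11.03 to 14.1 with DMSO and 12.85 to 13.9 with honokiol, which overlapped, whereas in U-937 they were 13.1 to 15.9 and 16.6 to 18.95. With 3 libraries a side, the smallest two-sided p-value of an exact permutation test is 0.1, so the sums were not tested. The sums leave out BAD, BIK and BMF, BH3-only genes outside the members. Their mean FPKM in THP-1 was 9.28, 12.5 and 4.82 with DMSO, and 10.7, 10.7 and 7.93 with honokiol. Sums, shares and ratios here therefore hold for the 4 listed members only. BCL2L11 held 44.3% ± 4.05 of the sum in THP-1 with DMSO and 50.9% ± 0.600 with honokiol, and 21.3% ± 2.70 and 32.1% ± 7.43 in U-937. The ratio of the anti-apoptotic to the BH3-only sum was 3.51 ± 0.196 and 3.31 ± 0.470 in THP-1, with overlapping ranges. In U-937 it was 7.82 ± 1.72 with DMSO and 5.76 ± 1.08 with honokiol, also overlapping (5.91 to 9.24 and 4.54 to 6.60). The ratio of BCL2L11 to BCL2 in THP-1 was 3.66 ± 0.903 with DMSO and 10.4 ± 2.11 with honokiol, and 1.81 ± 0.727 and 3.75 ± 1.24 in U-937.

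Counted over the family, honokiol called 0 of 10 members in THP-1 by edgeR, against 0.0411% of the 14600 genes tested. At an unadjusted p-value under 0.05, BCL2A1 and BCL2L11 were higher and BCL2 was lower, 3 of 10 members against 13.1% of all genes. The treatments did not overlap for 3 members that were higher (BCL2A1, BCL2L11 and BAK1) and 1 that was lower (BCL2), against 20.6% of all genes. DESeq2 called 1 member, BCL2, and limma none. In U-937 edgeR also called 0 of 10, against 0.0947% of 13726 genes. There BCL2L11 and PMAIP1 were higher at an unadjusted p-value under 0.05 (16.7% of all genes) and did not overlap (24.2% of all genes). DESeq2 called BCL2L11 and limma no member. In THP-1 the median log2 fold change of the members with honokiol was 0.21, and in U-937 it was 0.03, beside -0.0011 and 0.02 over all genes tested.

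**Figure D3:**
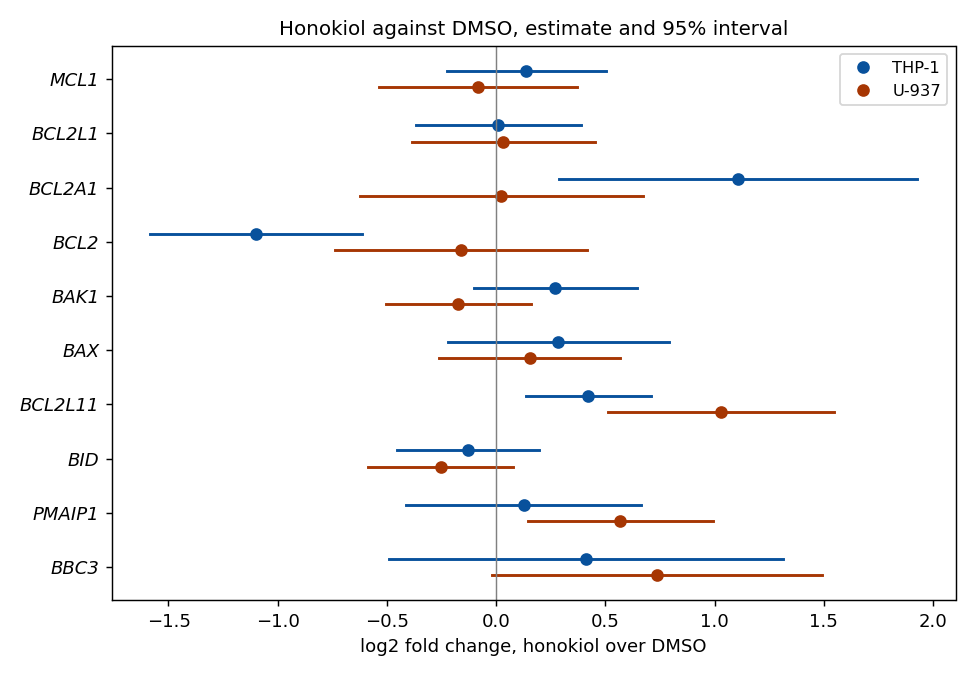
Log2 fold change of the 10 members with honokiol over DMSO (horizontal axis) in THP-1 (blue) and U-937 (brown), where points are edgeR estimates and lines their 95% intervals. In THP-1 the intervals of BCL2A1, BCL2L11 and BCL2 leave out 0, and in U-937 those of BCL2L11 and PMAIP1, before adjustment for the number of genes tested.

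The honokiol effect itself was compared between the lines in 1 fit of the 12 libraries. No member passed, against 0.111% of 16283 genes. At an unadjusted p-value under 0.05 there were 3 members, against 9.37% of all genes. BCL2 had the smallest p-value, with a difference of 0.93 on the log2 scale, U-937 minus THP-1 (SE 0.35, interval 0.17 to 1.69, adjusted p = 0.431). For BCL2A1 the difference was -1.10 (SE 0.47, interval -2.12 to -0.08, adjusted p = 0.493), and for BCL2L11 it was 0.59 (SE 0.26, interval 0.03 to 1.16, adjusted p = 0.511). The members with the narrowest intervals were BID (-0.55 to 0.27) and BAK1 (-0.94 to 0.03). DESeq2 and limma called no member either.

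**Figure D4:**
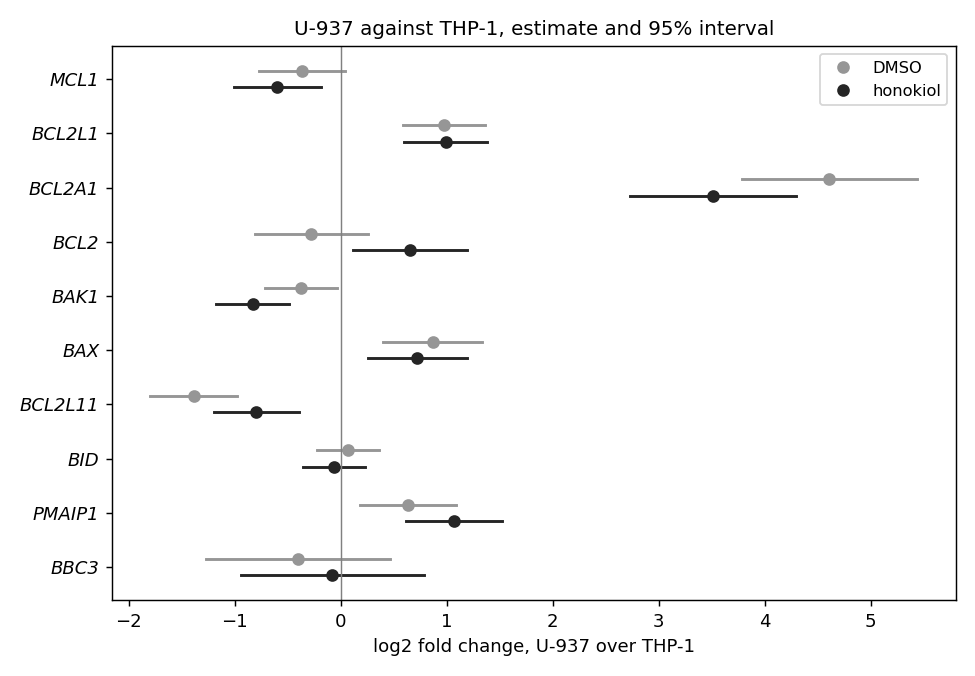
Log2 fold change of the 10 members in U-937 over THP-1 (horizontal axis) with DMSO (grey) and with honokiol (black), where points are edgeR estimates and lines their 95% intervals. BCL2A1 stands apart at 4.61 and 3.51, BCL2L1 lies at 0.98 and 0.99, and BCL2L11 is the lowest with DMSO at -1.39.

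The genes whose levels went most closely with the 3 widest-ranging members were looked up among 12244 genes over the 12 libraries. The correlations describe libraries of 2 lines and therefore follow the line above all. BCL2A1 went with TNFRSF10B (r = 0.989), the death receptor DR5, with UBOX5 (r = 0.988) and with the kinase gene PIM1 (r = 0.988). BCL2L11 went with PNPLA8, ZBTB34 and TMEM170B (r = 0.974, 0.972 and 0.964), and PMAIP1 with CENPP, WDR19 and RMDN1 (r = 0.967, 0.966 and 0.966).

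Beyond the 10 members, the family holds further BH3-only genes and relatives, of which 15 were listed. In THP-1 10 of them passed the filter on low values, and in U-937 9. BCL2L10, BCL2L14, BCL2L15, BNIPL and HRK passed in neither line. With honokiol none passed the test in either line. At an unadjusted p-value under 0.05, 1 was higher in THP-1, against 13.1% of all genes, and 2 were higher and 2 lower in U-937, against 16.7%. The list had a median log2 fold change of -0.12 in THP-1, and of 0.07 in U-937.

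BMF, a BH3-only gene whose protein is tethered to the cytoskeleton, measured 4.18, 4.53 and 5.75 with DMSO and 7.62, 7.08 and 9.08 with honokiol in THP-1. In U-937 it measured 5.48, 3.39 and 2.61 with DMSO and 5.36, 10.0 and 7.60 with honokiol. The THP-1 ranges did not overlap and those of U-937 did, with estimates of 0.67 (SE 0.16, adjusted p = 0.188) and 0.89 (SE 0.33, adjusted p = 0.246). BNIP3L, a mitophagy receptor also called NIX, had 5.76, 6.44 and 5.97 with DMSO and 12.8, 11.97 and 12.1 with honokiol in U-937. This was the member of the list nearest to the threshold, at 0.93 (SE 0.13, adjusted p = 0.0598). In THP-1 BNIP3L had 15.7, 17.9 and 23.3 with DMSO and 19.45, 11.97 and 15.6 with honokiol, at -0.32 (SE 0.21, adjusted p = 0.521). The difference of the 2 effects, 1.24 (SE 0.25, adjusted p = 0.107), did not pass. The 2 genes below DMSO in U-937 were BIK (-0.81, adjusted p = 0.264) and BNIP3 (-0.55, adjusted p = 0.264), named after their values were seen. Between the lines with DMSO, 5 of the 10 genes tested were lower in U-937 at an adjusted p-value under 0.05 and 1 was higher, against 52.9% of all genes. BOK, an effector-like gene, was at 1.05 to 3.24 in THP-1 and at most at 0.09 in U-937.

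**Figure D5:**
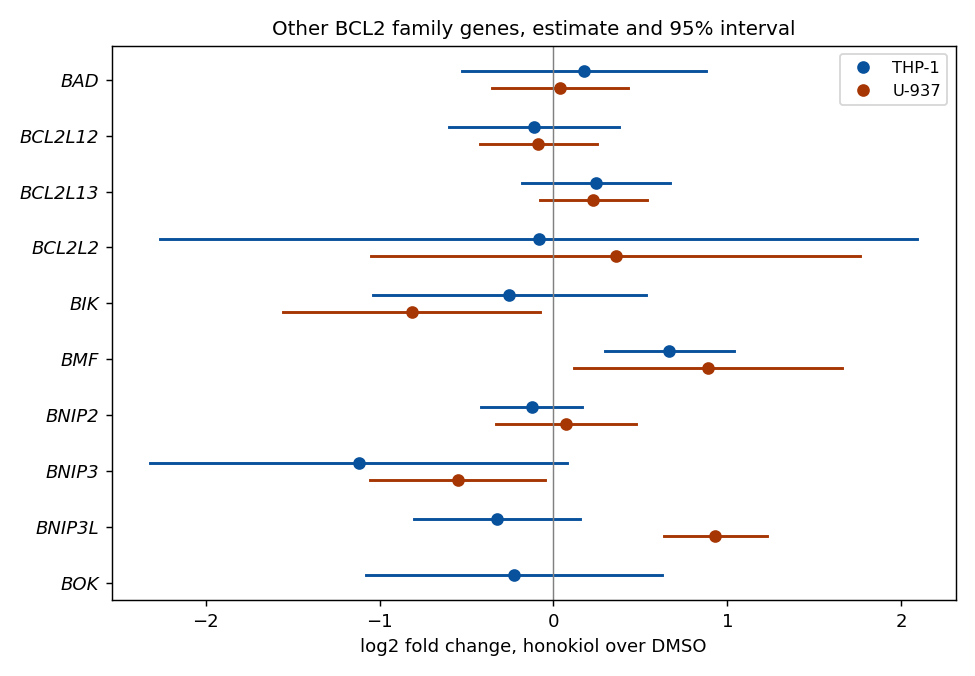
Log2 fold change with honokiol over DMSO (horizontal axis) of the BCL2 family genes outside the 10 members that passed the filter, in THP-1 (blue, 10 genes) and U-937 (brown, 9 genes), with edgeR estimates as points and 95% intervals as lines. BNIP3L lies at 0.93 in U-937 and -0.32 in THP-1, and BMF lies above 0 in both lines.

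Downstream of the mitochondria, 13 genes of the apoptosome and the caspases were listed and all 13 were tested in both lines. None passed with honokiol. At an unadjusted p-value under 0.05, 2 were lower in each line and 0 higher, close to the 13.1% (THP-1) and 16.7% (U-937) of all genes, with medians of 0.01 in both lines. CASP2, an initiator caspase, had an estimate of -0.83 in THP-1 (SE 0.26, adjusted p = 0.285) and -1.16 in U-937 (SE 0.31, adjusted p = 0.148). DFFA, which encodes an inhibitor of the caspase-activated nuclease, had -0.50 in U-937 (SE 0.16, adjusted p = 0.199). Of 9 genes of the caspase inhibitors and their antagonists, 8 passed the filter in THP-1 and 7 did in U-937, none passed the test, and the medians were -0.12 and -0.09. BIRC2, which encodes cIAP1, measured 1.42, 2.65 and 3.62 with DMSO and 5.28, 5.24 and 6.33 with honokiol in U-937 (1.06, SE 0.29, adjusted p = 0.159). Of 11 mitochondrial partners and turnover enzymes, none passed in either line, with medians of -0.11 and -0.15. The 2 with the smallest p-values were VDAC1, an outer membrane channel (-0.38, SE 0.16, adjusted p = 0.286), and the kinase gene GSK3A (-0.38, SE 0.16, adjusted p = 0.287), both in U-937.

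The factors known to act on the members' promoters were read from a list of 16, and all 16 passed the filter in THP-1, 15 in U-937. None passed with honokiol. At an unadjusted p-value under 0.05, 4 were higher and 2 lower in THP-1 (13.1% of all genes), and 3 higher and 1 lower in U-937 (16.7% of all genes), with medians of 0.13 and 0.05. DDIT3, which encodes the stress factor CHOP, stood at 4.76, 5.49 and 4.66 with DMSO and at 10.65, 18.4 and 14.97 with honokiol in U-937. It stood at 9.88, 16.1 and 13.3 with DMSO and at 24.4, 26.2 and 53.75 with honokiol in THP-1. The honokiol libraries were above the DMSO libraries in both lines, at 1.47 (SE 0.23, adjusted p = 0.0637) in U-937 and 1.36 (SE 0.32, adjusted p = 0.176) in THP-1. ATF4, the factor upstream of CHOP in the integrated stress response, had 0.57 in U-937 (SE 0.17, adjusted p = 0.177) and 0.22 in THP-1 (SE 0.19, adjusted p = 0.636). STAT5A measured 3.14, 2.84 and 3.39 with DMSO and 5.58, 6.56 and 7.33 with honokiol in THP-1 (0.99, SE 0.16, adjusted p = 0.0831). TP73, which encodes the p53 relative p73, measured 4.16, 5.41 and 4.31 with DMSO and 2.54, 1.24 and 1.56 with honokiol there (-1.43, SE 0.27, adjusted p = 0.136). Of the FOXO genes, FOXO1 measured 1.3, 0.97 and 1.06 with DMSO and 1.90, 3.20 and 3.31 with honokiol in THP-1, where the ranges did not overlap (1.27, SE 0.27, adjusted p = 0.163). In U-937 its estimate was 0.16 (SE 0.18, adjusted p = 0.692), and the difference of the effects was -1.11 (SE 0.33, adjusted p = 0.332). FOXO3 had 0.14 in THP-1 (adjusted p = 0.637) and 0.05 in U-937 (adjusted p = 0.909).

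Of 15 known p53 targets outside the family, 14 passed the filter in THP-1 and 11 did in U-937, and none passed the test with honokiol. At an unadjusted p-value under 0.05, 2 were higher and 2 lower in THP-1 (13.1% of all genes), and 2 higher and 0 lower in U-937 (16.7% of all genes), with medians of 0.37 and 0.16. SESN2, which is also a target of ATF4, measured 6.65, 4.92 and 9.31 with DMSO and 19.9, 17.9 and 16.8 with honokiol in U-937 (1.302, SE 0.22, adjusted p = 0.0711). MDM2, the ligase that degrades p53, was at 2.03 to 2.47 with DMSO and at 3.55 to 3.67 with honokiol there (0.62, SE 0.13, adjusted p = 0.0945). In THP-1 CDKN1A, the gene of the cell cycle inhibitor p21, was at 38.8 to 53.4 with DMSO and at 34.2 to 38.75 with honokiol (-0.46, SE 0.14, adjusted p = 0.264). TNFRSF10B had 2.89, 3.26 and 3.71 with DMSO and 4.02, 5.15 and 6.37 with honokiol in THP-1 (0.60, SE 0.19, adjusted p = 0.285).

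Between the lines with DMSO, these lists split as follows at an adjusted p-value under 0.05 and any fold change, which 52.9% of the 16283 genes passed. Of the 13 apoptosome and caspase genes, 6 were higher and 3 lower in U-937. Of 8 caspase inhibitors and antagonists tested, 1 was higher and 3 lower. Of 11 mitochondrial partners and turnover enzymes, 4 were higher and 2 lower. Of the 16 factors, 3 were higher and 4 lower, and of the 15 p53 targets, 4 were higher and 7 lower.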

How the data were processed

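RNA of 12 libraries was sequenced. The authors deposited 1 table with an FPKM value (2 decimals) and a whole estimated count for each gene and library. The submitters' processing notes name HISAT2 2.0, StringTie 1.3.0, Bowtie 0.12.2 and the mouse build mm8, although the gene coordinates are those of human GRCh38. The counting step and strand setting are not given in the sources used here. Of 36866 genes, 35762 were found in GENCODE 29 by identifier.

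A gene was tested where 3 or more libraries of the fit reached an FPKM of 0.5. Counts were normalized by TMM and tested with edgeR 4.0.16 (R 4.3.3), each line alone for honokiol, and all 12 libraries for the lines and the difference of effects. Alternatives used limma 3.58.1 on log2(FPKM + 0.5) or log2(FPKM + 0.1), DESeq2 1.42.0, other filters and normalizations, counts divided by 4, a replicate block, and each library left out. The scripts were tested on simulated data.

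The members and lists were chosen with earlier results of these data known. Beside the members, named genes were those of each list with an adjusted p-value under 0.05 with honokiol, otherwise the 2 with the smallest unadjusted p-value under 0.05 in each line, and the 3 genes correlated best with each of the 3 widest-ranging members. Others were named after their values were seen. Not every gene that the rule picks is reported here. Promoter sequences are RefSeq's (GRCh38.p14), with an entry for 9 of the 10 members.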

Additional observations from a re-analysis of the deposited data

How the results depend on the processing

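With 3 libraries in a group, counts of called genes depended strongly on the method, and the cause was not tested. In THP-1 the 6 genes called became 250 by DESeq2, 33 in 1 fit of all 12 libraries, 1 with edgeR's filterByExpr, and 0 with no filter and with limma at either pseudocount. In U-937 the 13 became 223 by DESeq2 and 108 in 1 fit. The 18 differences of effect became 244 by DESeq2, 2 and 1 by limma at a pseudocount of 0.5 and 0.1, 0 with counts divided by 4, and 7 without the library of each line with the highest mitochondrial share, a setting chosen after seeing the data. Members called with honokiol went from 0 to 1 by DESeq2 in each line, and to 1 in U-937 in 1 fit. With a replicate block 0 genes were called in THP-1, in U-937 and for the difference. Deviations of libraries with the same number correlated at -0.18 to 0.13 in THP-1 and -0.16 to -0.09 in U-937, so the numbers were not read as pairs. In U-937 no DMSO library correlated best with the honokiol library of its own number, and in THP-1 replicate 3 did.

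Leaving out each library gave 0 to 43 genes in THP-1, 0 to 6 in U-937, 1 to 22 for the difference, and 1 to 3 members between the lines with honokiol. Some small estimates turned sign. By filterByExpr, BCL2L1 was -0.0051 in THP-1 and BCL2A1 -0.0041 in U-937. By limma, MCL1 was 0.031 and 0.032 in U-937, and BID 0.026 and 0.027 between the lines with honokiol. Without mitochondrially encoded genes the difference for BCL2L1 was -0.0047. With single libraries left out, the THP-1 effect ranged from -0.055 to 0.13 for BCL2L1 and -0.055 to 0.30 for PMAIP1. The U-937 effect ranged from -0.022 to 0.24 for BAX, -0.21 to 0.15 for MCL1, -0.070 to 0.22 for BCL2L1, -0.34 to 0.17 for BCL2 and -0.21 to 0.24 for BCL2A1. The line difference ranged from -0.75 to 0.029 for BBC3 and -0.0093 to 0.15 for BID with DMSO, and from -0.13 to 0.0044 for BID and -0.27 to 0.13 for BBC3 with honokiol. The difference of effects ranged from -0.11 to 0.21 for BCL2L1, -0.31 to 0.047 for BAX, -0.12 to 0.66 for BBC3 and -0.37 to 0.0080 for MCL1. Of 980 values of single members under the alternatives, 930 kept their sign and their side of the criterion.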
